A study of Cyprinus carpio with 18 samples.

Results

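The KMT5A-like genes of common carp, Cyprinus carpio, were followed through early development. They are the protein-coding features whose deposited product name contains KMT5A. Of 90808 features in the data, 10 carry such a name, and all 10 were taken. Of these, LOC109068150 (NCBI GeneID '109068150') was selected on its measured levels, which were absent at cleavage and high at blastocyst, and the others were chosen by name. For LOC109068150 every comparison that uses cleavage or blastocyst libraries is given as a description without a test. RNA came from whole wild-type (WT) embryos and larvae of the FFRC No.2 strain, a variety bred from Jian, Huanghe and Heilongjiang carp, obtained by natural spawning. Each of 6 stages had 3 libraries: 2 hours post-fertilization (hpf) for cleavage, 6 hpf for blastocyst, 12 hpf for gastrulation, 20 hpf for organ formation, 64 hpf for hatching, and larvae 1 day post-hatching (dph). The labels' protocols say that equal amounts of RNA were pooled within a stage and that libraries were strand-specific and depleted of ribosomal RNA. Whether libraries of a stage came from separate spawnings is not said, so p-values measure the spread between libraries, which may be technical. In whole embryos fewer expressing cells and less RNA per cell cannot be told apart.

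KMT5A, also called SET8, PR-Set7 or SETD8, is the enzyme that puts a single methyl group on lysine 20 of histone H4. This mark (H4K20me1) accompanies mitotic chromosome condensation, and it is the substrate on which KMT5B and KMT5C build the di- and trimethylated forms. In vertebrate cells the protein is destroyed during DNA replication by the CRL4-Cdt2 ubiquitin ligase, which recognises it on the sliding clamp PCNA. In fish the cleavage divisions run largely on RNA that the egg supplied, and transcription of the embryo's own genome begins in the blastula. A copy counted at cleavage is therefore of the kind usually called maternal, although the labels do not separate egg RNA from new RNA.

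The 10 copies fell into distinct classes by their counts at cleavage, which is a description of the members and not a test. There were 5 copies with 10 or more counts in every cleavage library. A further 3 had no count in any cleavage library and their highest mean at blastocyst. LOC109058937 had 24 counts in 11 of the 18 libraries, and LOC109074114 had none. The last 2 did not pass the filter on low counts, and 8 of the 10 copies were tested. Of the 10 identifiers, 5 were found in NCBI's gene table for the ASM1834038v1 assembly of carp, from which only names and neighbours were taken. The 5 not found were LOC109068150, LOC109080144, LOC109049960, LOC109058937 and LOC109074114. Why they are absent was not examined. For the copies that were found, the names in that table can differ from the deposited ones. In NCBI's table LOC109074173 is named kmt5ab and LOC109059003 is named kmt5aa, although the deposited product name of both is KMT5A-A-like. LOC109079974 is the only copy with the deposited name KMT5A-B-like.

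The genes on 1 side in that table tied kmt5aa to LOC109088593. The 4 genes that follow kmt5aa and the 4 that follow LOC109088593 had matching product names in the same order. They were strawberry notch homolog 1, cyclin-dependent kinase 2-associated protein 1, M-phase phosphoprotein 9 and a membrane-associated phosphatidylinositol transfer protein 2. Among the 4 genes before each copy no product names matched, and some of these genes had no product name here. The carp genome is duplicated relative to that of zebrafish. The gene kmt5ab lay between mtrfr and rilpl2, a RILP-like gene. No source used here says how reads matching more than 1 copy were counted, so the split of reads between near-identical copies is uncertain.

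Depth ran from 16326813 counts in cleavage replicate 3 to 43270557 in gastrulation replicate 2. No pair of libraries of 1 stage agreed within sampling noise, with a chi-square per degree of freedom of 3.84 or more, and larva replicate 3 stood farthest from its partners (30.3 and 31.5). Stage labels were checked with genes of known timing. The oocyte kinase wee2 had a mean of 390 CPM (counts scaled to the library total) at blastocyst and 0.0868 CPM at organ formation. The hatching enzyme LOC109047084 went from 0 CPM at cleavage to 3442 CPM at hatching.

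Levels are given in CPM after TMM scaling of the libraries, as mean ± SD of a stage (n = 3). A log2 change is the later stage minus the earlier one and carries its standard error (SE). A copy is said to have risen or fallen where the edgeR quasi-likelihood test had a Benjamini-Hochberg adjusted p under 0.05 over all 69265 tested features. Neighbouring comparisons share the libraries of the stage between them and are not independent.

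The copy LOC109068150 was seen mainly at blastocyst. It had 0 counts in each of the 3 cleavage libraries, and 33.1, 25.2 and 31.4 CPM in blastocyst replicates 1, 2 and 3, from 1397, 1019 and 1299 counts. At gastrulation the libraries held 1.91, 3.74 and 2.67 CPM. All 3 blastocyst libraries lay above every other library of the series. No library of organ formation had a count, and later libraries held 2 counts in hatching replicate 1 and 4 and 1 counts in larva replicates 2 and 3. The blastocyst mean of 29.9 ± 4.17 CPM was at least 882-fold higher than at cleavage, where the level of 3 counts in all cleavage libraries together stood in for 0. At gastrulation the mean was 2.78 ± 0.921 CPM, which is 9.28% of the blastocyst mean. The log2 change of this step was -3.40 with TMM factors, -4.07 under library totals and -4.36 under the library sizes implied by the RPKM values (RPKM denominators). These values chose the gene and carry no test. From gastrulation to organ formation it went from 219 counts to 0, at least 54.3-fold lower. The choice did not use the libraries of this step. Blastocyst, a stage that the choice used, held 3715 of its 3941 counts, so this step too is given without a p and is a description. Such floors cover counting error only.

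LOC109109014 had a similar course at a lower level. It had no count at cleavage and 9.41, 5.24 and 5.13 CPM in the blastocyst libraries. At gastrulation it had 0.0682, 0.195 and 0.387 CPM, and every blastocyst library was above every gastrulation library. The blastocyst mean of 6.59 ± 2.44 CPM was at least 194-fold above cleavage. The gastrulation mean of 0.217 ± 0.16 CPM was 3.29% of it (log2 change -4.79 with an SE of 0.60, and -5.44 under library totals). Blastocyst held 821 of its 882 counts. Every hatching library also had a count, at 1, 7 and 8. The larval libraries held 7, 9 and 9 counts, a mean of 0.328 ± 0.0637 CPM. Without gastrulation replicate 3, its highest of that stage, the log2 change at gastrulation was -5.61.

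LOC109049960, also without a cleavage count, was the most variable at blastocyst. Its blastocyst libraries held 136, 87 and 300 counts, or 3.22, 2.15 and 7.26 CPM. Replicate 3 was the highest for this copy, whereas replicate 1 was the highest for LOC109109014 and LOC109068150. The blastocyst mean of 4.21 ± 2.69 CPM was at least 124-fold above cleavage, and the gastrulation mean was 0.563 ± 0.534 CPM (log2 change -2.84 with an SE of 0.75, and -3.54 under library totals). Blastocyst held 523 of its 610 counts. Since both copies are described as a class for lacking cleavage counts, and nearly all their counts lie at blastocyst, their changes in the steps into and out of blastocyst are given without a p and support nothing. The gastrulation libraries were uneven too, with 5, 36 and 5 counts, and without replicate 2 the log2 change was -4.29. Later stages held 1 to 15 counts a library.

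**Figure D1:**
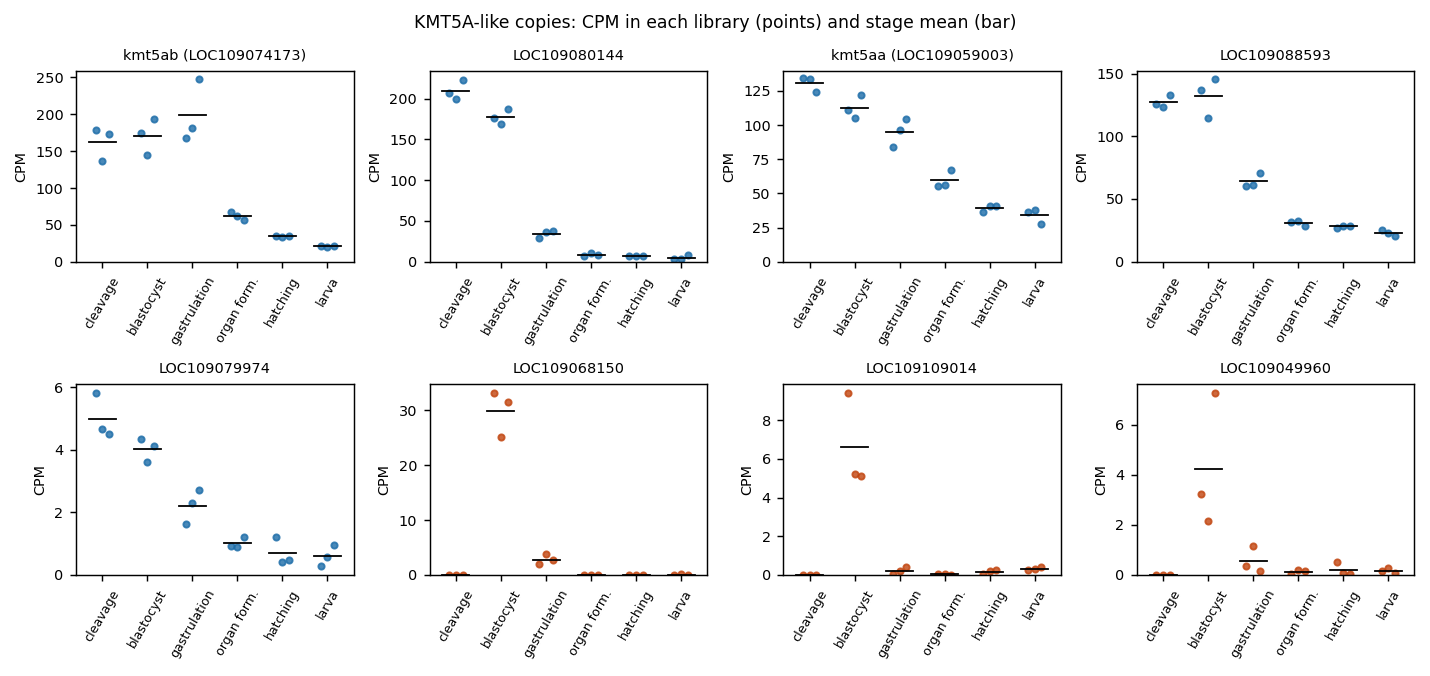
CPM of the 8 tested KMT5A-like copies in each library, by stage, each panel with its own linear axis from 0 (points are libraries, bars are means of 3 libraries, blue for copies counted at cleavage and red for copies without a cleavage count). The 5 blue copies are lower in the larva than at cleavage, while the 3 red copies sit at 0 at cleavage and peak at blastocyst, LOC109068150 at a mean of 29.9 CPM.

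Few genes met the pattern of these 3 copies under a strict definition. Of 48456 protein-coding genes with a count in any library, 41 (0.0846%) had no count at cleavage, a mean of 1 CPM or more at blastocyst and a lower level in every gastrulation library than in every blastocyst library. This definition was set after the copies were seen, so the 3 of 9 KMT5A-like genes with counts that meet it are a description, and LOC109068150 was chosen for part of it. The genes whose profile was most like LOC109068150 were sought among 27818 named protein-coding genes by Pearson's r of log2 CPM over the 18 libraries, which share their stages. LOC109113094, a piggyBac transposable element-derived 4-like gene, was closest (r = 0.98). It had 0 CPM at cleavage, 20.2 ± 4.07 at blastocyst and 2.89 ± 0.918 at gastrulation. A second piggyBac 4-like gene, LOC109113093, had r = 0.97 and reached 256 ± 51.7 CPM at blastocyst. The others were the gastrula zinc finger genes XlCGF8.2DB-like (LOC109059264, r = 0.98) and XlCGF26.1-like (LOC109052311, r = 0.97) and the oocyte zinc finger gene XlCOF6-like (LOC109044852, r = 0.96). These had 33.02 ± 8.09, 30.7 ± 6.85 and 28.8 ± 6.86 CPM at blastocyst. LOC109059264 and LOC109113093 had cleavage means of 0.0349 and 0.195 CPM and so are not among the 41, whose number depends on the demand for no cleavage count. Within the family, r was 0.83 between LOC109068150 and LOC109109014 and 0.89 between LOC109068150 and LOC109049960. All these r values reuse the cleavage and blastocyst levels that chose LOC109068150. The same levels set the class of LOC109109014 and LOC109049960, so a high r between these copies is a description and supports nothing.

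The 5 copies present at cleavage did not pass the test from cleavage to blastocyst in either direction. Of the 7 tested copies other than LOC109068150, 0 fell, 5 did not pass and 2 passed as risen, which are the 2 without cleavage counts, so that this count of rises was fixed by the class. Over all features 15.8% rose and 6.52% fell, and the median log2 change was 0.06 for the 7 copies and 0.06 for all features. The gene kmt5ab had 179, 137 and 173 CPM at cleavage and 174, 145 and 193 CPM at blastocyst, ranges that overlap (log2 change 0.07 with an SE of 0.13, edgeR adjusted p = 0.85). LOC109080144 had 207, 200 and 223 CPM at cleavage and 176, 169 and 187 CPM at blastocyst. Its ranges did not overlap, but the difference did not pass (log2 change -0.24 with an SE of 0.20, edgeR adjusted p = 0.43). For kmt5aa the means were 131 ± 5.46 and 113 ± 8.29 CPM (log2 change -0.21 with an SE of 0.12, edgeR adjusted p = 0.21). For LOC109088593 they were 127 ± 4.9 and 132 ± 16.4 CPM (log2 change 0.06 with an SE of 0.11, edgeR adjusted p = 0.84). Without gastrulation replicate 3 this copy passed as risen (log2 change 0.28, edgeR adjusted p = 0.049), and also with a filter of 1 CPM in 3 libraries (log2 change 0.30, edgeR adjusted p = 0.031). Without gastrulation replicate 1 or 2 its log2 change was also 0.28 but did not pass (edgeR adjusted p = 0.060 and 0.055). The upward move was not particular to this copy. Without gastrulation replicate 3, kmt5ab, LOC109080144 and kmt5aa moved to 0.30, -0.014 and 0.0099, and with the filter to 0.32, 0.0018 and 0.027. LOC109079974 was scarce, at 4.9995 ± 0.725 and 4.03 ± 0.376 CPM (log2 change -0.31 with an SE of 0.39, edgeR adjusted p = 0.65).

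From blastocyst to gastrulation the cleavage-stage copies parted. Of the 7 copies counted, 0 rose, 4 fell and 3 did not pass. Over all features 44.4% rose and 22.3% fell, and the median log2 change was -1.05 for the 7 copies and 0.75 for all features. LOC109080144 dropped to 28.4, 36.03 and 37.7 CPM, all far below its blastocyst libraries (log2 change -2.38 with an SE of 0.21, edgeR adjusted p = 3.9e-09), which left 19.2% of the blastocyst mean. Under library totals and the RPKM denominators its log2 change was -3.04 and -3.35. LOC109088593 fell to 60.2, 61.1 and 70.9 CPM, or 48.4% (log2 change -1.05 with an SE of 0.11, edgeR adjusted p = 3.2e-08). Its log2 change under the other scalings was -1.70 and -2.04. The other 2 called as fallen were LOC109109014 and LOC109049960, whose peak at blastocyst fixed that direction. They also enter the median of the 7 copies, which is therefore only a description. Of the copies counted at cleavage, only LOC109080144 and LOC109088593 were called as fallen. The gene kmt5aa had 83.9, 96.2 and 104.7 CPM (log2 change -0.25 with an SE of 0.12, edgeR adjusted p = 0.074). LOC109079974 had 2.22 ± 0.542 CPM (log2 change -0.84 with an SE of 0.40, edgeR adjusted p = 0.066). Both passed as fallen without cleavage replicate 2 or 3, blastocyst replicate 3, gastrulation replicate 3 or larva replicate 3. The gene kmt5aa also did without gastrulation replicate 1 or 2 (log2 change -0.49 to -0.37 over these), and LOC109079974 without hatching replicate 1 (log2 change -1.18 to -0.84).

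The gene kmt5ab had its highest mean at gastrulation, with 168, 182 and 248 CPM, and its range overlapped that of blastocyst (log2 change 0.22 with an SE of 0.13, edgeR adjusted p = 0.15). The direction of this value depends on scaling: it was -0.43 under library totals and -0.76 under the RPKM denominators, past the threshold in both (edgeR adjusted p = 0.0084 and 5.0e-04). The median log2 change of all tested features in this step was 0.75 with TMM factors, 0.10 under library totals and -0.08 under the RPKM denominators. The 5 copies counted at cleavage lay below the median of all features under TMM factors, RLE size factors, library totals, RPKM denominators and DESeq2. Each copy fell when RPKM denominators or library totals were used, 7 of 7 counted, against 4 with TMM factors. These counts again include LOC109109014 and LOC109049960, whose direction was fixed.

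From gastrulation to organ formation the 5 copies counted at cleavage all passed as fallen with TMM factors. Of all 8 tested copies 7 fell, 0 rose and 1 did not pass. Over all features 28.1% rose and 19.8% fell, with a median log2 change of 0.25 against -1.83 for the 8 copies. The 8 include LOC109068150, LOC109109014 and LOC109049960, chosen or classed by their course up to blastocyst. The count of 7 and the median of the 8 therefore rest partly on that choice and are a description. Among the copies counted at cleavage the log2 changes with TMM factors ran from -1.98 to -0.67. All 8 copies lay below the median of all features under the same scalings. Under the RPKM denominators 4 copies passed as fallen in place of 7, and kmt5aa, LOC109079974 and LOC109109014 lost their calls. The gene kmt5ab fell to 67.6, 61.7 and 57.2 CPM, which left 31.2% of the gastrulation mean (log2 change -1.68 with an SE of 0.14, edgeR adjusted p = 1.5e-09). LOC109080144 fell to 7.404, 10.9 and 7.67 CPM, leaving 25.4% (log2 change -1.98 with an SE of 0.22, edgeR adjusted p = 2.3e-07). LOC109088593 fell to 30.8 ± 2.21 CPM, leaving 48.1% (log2 change -1.06 with an SE of 0.11, edgeR adjusted p = 7.4e-08). The smallest fall was that of kmt5aa, to 59.6 ± 6.72 CPM or 62.8% (log2 change -0.67 with an SE of 0.12, edgeR adjusted p = 8.3e-05). Under the RPKM denominators it did not pass (log2 change -0.35, edgeR adjusted p = 0.090). LOC109079974 fell to 1.01 ± 0.174 CPM (edgeR adjusted p = 0.033). That call was lost without gastrulation replicate 2 or 3 or organ formation replicate 1 or 2 (edgeR adjusted p = 0.065 to 0.098), and under library totals (edgeR adjusted p = 0.13). LOC109109014 went from 18 counts to 2 and LOC109049960 from 46 counts to 8. Both had most of their counts at blastocyst, the stage that set their class, so these changes are given without a p. LOC109109014 was called as fallen, but not without gastrulation replicate 3, without any single organ formation library or with a replicate block. LOC109049960 was not called, except without gastrulation replicate 3. These calls are a description and support nothing.

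**Figure D2:**
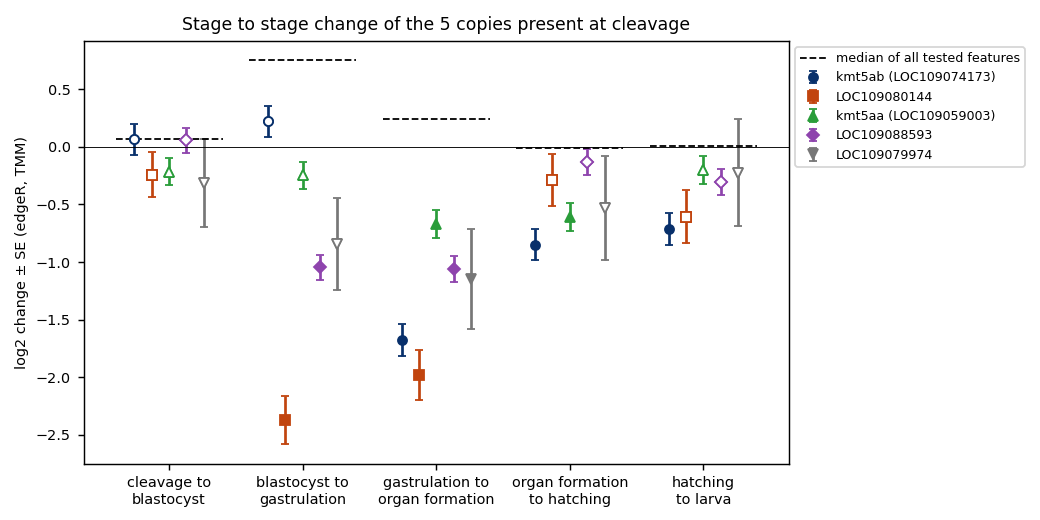
Log2 change (edgeR with TMM factors, error bars are SE) of the 5 KMT5A-like copies counted at cleavage in each step between neighbouring stages, with filled symbols for an adjusted p under 0.05, open symbols for others and dashed lines at the median of all tested features. The copies lie near 0 in the first step and spread in the second from 0.22 for kmt5ab, which is -0.43 under library totals, to -2.38 for LOC109080144.

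The last steps were smaller. From organ formation to hatching 2 of 8 copies fell and 0 rose, where 17.4% of all features rose and 12.2% fell. The median log2 change was -0.21 for the 8 copies and -0.01 for all features. The 8 again include LOC109068150, LOC109109014 and LOC109049960, chosen or classed by their course up to blastocyst and with few counts from organ formation on. The count of 2, the later count of 1 and the median of the 8 are therefore a description. The gene kmt5ab fell to 34.5 ± 0.689 CPM (log2 change -0.85 with an SE of 0.14, edgeR adjusted p = 6.4e-05). The fall of kmt5aa was to 39.1 ± 2.64 CPM (log2 change -0.61 with an SE of 0.12, edgeR adjusted p = 5.7e-04). Neither passed under the RPKM denominators (edgeR adjusted p = 0.068 and 0.43). From hatching to larva 1 of 8 fell, kmt5ab, and 0 rose, where 5.32% of all features rose and 6.13% fell. Its larval libraries held 20.8, 20.4 and 21.95 CPM (log2 change -0.72 with an SE of 0.14, edgeR adjusted p = 0.0016). LOC109080144 had 3.56, 3.02 and 7.58 CPM in larva replicates 1, 2 and 3, with replicate 3 above all 3 hatching libraries. Without that library, the one that stood apart over all genes, it fell too (log2 change -1.13 with an SE of 0.17, edgeR adjusted p = 1.6e-04), and with it the change did not pass (log2 change -0.61 with an SE of 0.23, edgeR adjusted p = 0.10). The part of that library in the result beyond this was not tested.

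Over the whole course the 5 copies kept different amounts of their cleavage level. The larval mean was 2.25% of the cleavage mean for LOC109080144, 12.02% for LOC109079974, 12.9% for kmt5ab, 17.9% for LOC109088593 and 25.97% for kmt5aa. These percentages rest on TMM factors and were not recomputed under other scalings. That of LOC109080144 also rests on larva replicate 3, at 7.58 CPM against 3.56 and 3.02 in replicates 1 and 2. In the order of stage means, kmt5aa descended from stage to stage in developmental order, and only hatching and larva had overlapping ranges. For LOC109080144 the order was the same, again with hatching and larva overlapping. LOC109079974 kept this order too, and its last 3 stages overlapped from neighbour to neighbour. For kmt5ab the order was gastrulation, blastocyst and cleavage, each overlapping the next, then organ formation, hatching and larva without overlap. In RPKM its order was that of development, from 47.6 ± 6.65 at cleavage and 43.03 ± 7.21 at blastocyst, which overlapped, to 25.4 ± 7.37 at gastrulation, which did not. For LOC109088593 blastocyst and cleavage overlapped, as did organ formation and hatching, and the other neighbours did not. In RPKM the hatching mean was above the organ formation mean for LOC109088593 (4.94 ± 0.0843 against 4.06 ± 0.557) and for LOC109080144 (1.18 ± 0.0453 against 1.096 ± 0.343).

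Because a ratio of counts within a library (0.5 added to each) does not depend on scaling, the 2 copies with the most counts other than LOC109068150 were compared directly. The log2 ratio of kmt5ab to LOC109080144 was -0.21, -0.54 and -0.37 in the cleavage libraries and -0.01, -0.23 and 0.05 at blastocyst. It was 2.56, 2.33 and 2.72 at gastrulation and 3.19, 2.50 and 2.89 at organ formation. At hatching it was 2.31, 2.29 and 2.25, and in the larva 2.54, 2.75 and 1.53, with replicate 3 lowest. Every library from gastrulation on lay above every cleavage and blastocyst library. The stage means spanned 3.23 log2 units, and the ratio differed among stages in a permutation test of the stage labels (100000 resamples, p = 1.4e-04). Between kmt5aa and the copy that shares the names of its following neighbours, LOC109088593, the ratio moved less. This pair was chosen after its values were seen and was not tested. The log2 ratio of LOC109088593 to kmt5aa was -0.04 ± 0.11 at cleavage, 0.23 ± 0.10 at blastocyst, -0.57 ± 0.09 at gastrulation, -0.95 ± 0.26 at organ formation, -0.47 ± 0.05 at hatching and -0.57 ± 0.14 in the larva (SD, n = 3). All blastocyst libraries were above 0 and all later libraries below it.

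**Figure D3:**
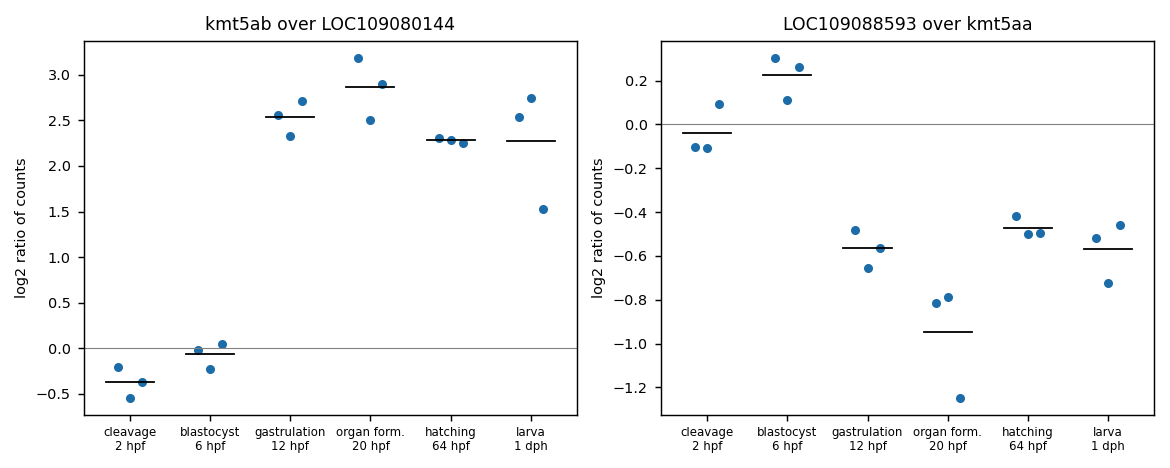
Log2 ratio of the counts of 2 KMT5A-like copies within each library, by stage (points are libraries, bars are means of 3 libraries). On the left kmt5ab over LOC109080144 moves from about even at cleavage and blastocyst to stage means of 2.27 or more, and on the right LOC109088593 over kmt5aa moves from a blastocyst mean of 0.23 to -0.95 at organ formation.

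Levels of different copies were compared per length, with the deposited RPKM (reads scaled for feature length and library size). At cleavage LOC109080144 had 48.3 ± 1.57 RPKM and kmt5ab 47.6 ± 6.65 RPKM, with overlapping ranges, followed by LOC109088593 at 30.8 ± 1.3, kmt5aa at 25.2 ± 2.94 and LOC109079974 at 2.84 ± 0.574 RPKM. In the larva kmt5aa, kmt5ab and LOC109088593 had 4.96 ± 0.735, 4.69 ± 0.262 and 4.204 ± 0.399 RPKM, and their ranges overlapped. The sum over the 10 copies was 155 ± 11.1 RPKM at cleavage, 142 ± 19.5 at blastocyst, 44.7 ± 11.3 at gastrulation, 21.6 ± 2.001 at organ formation, 19.4 ± 0.294 at hatching and 15.3 ± 0.248 in the larva. In CPM with TMM factors the sum was 636 ± 32.6, 638 ± 63.6, 398 ± 63.01, 162 ± 0.389, 110.04 ± 3.06 and 83.7 ± 4.16. The 3 copies without cleavage counts made up 10.5% ± 1.39 of the summed RPKM at blastocyst and 1.49% ± 0.834 at gastrulation. At blastocyst LOC109068150 alone held 4.65% ± 0.343, LOC109109014 3.13% ± 1.11 and LOC109049960 2.76% ± 1.503. In the later stages the 3 copies together held means of 0.446% to 2.31%. The share of LOC109080144 went from 31.3% ± 1.2 at cleavage to 7.69% ± 0.669 at gastrulation, while that of kmt5ab went from 30.7% ± 2.58 to 56.5% ± 3.01. The share of kmt5aa was 16.3% ± 1.43 at cleavage and 32.4% ± 4.31 in the larva. Shares within a library do not depend on its depth, but they rest on the lengths that the authors used.

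**Figure D4:**
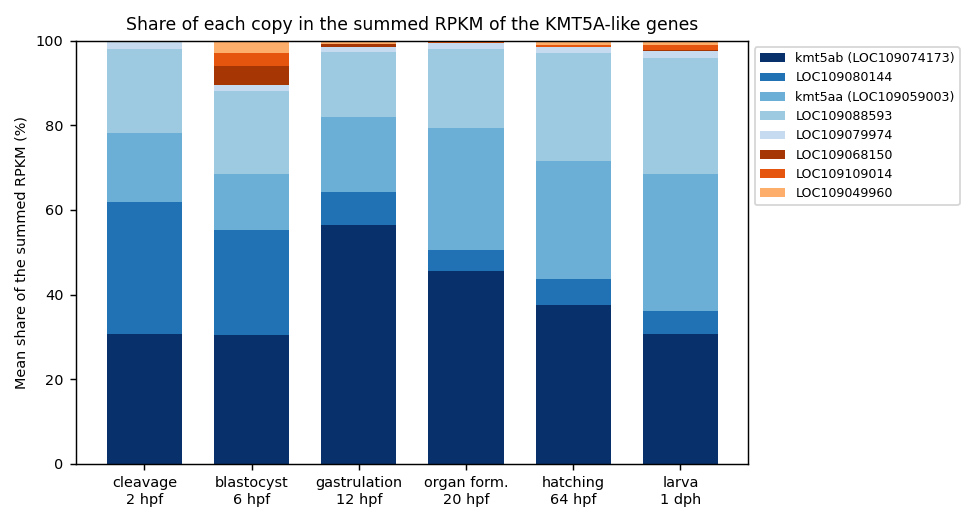
Mean share (%) of each of the 8 tested KMT5A-like copies in the summed RPKM of the family, by stage, stacked to 100 (n = 3 libraries, blue for copies counted at cleavage, red to orange for copies without a cleavage count). The red to orange copies show as a band of 10.5% at blastocyst, LOC109080144 shrinks from 31.3% to 7.69% between cleavage and gastrulation, and kmt5ab is widest at gastrulation with 56.5%.

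The genes most like kmt5ab, by the same measure over 18 libraries, were condensin complex subunit 3-like (LOC109093233, r = 0.99), a GA-binding protein beta-2-like gene (LOC109054104), a rho GTPase-activating protein 11A-like gene (LOC109104954), multiple C2 and transmembrane domain-containing 2-like (LOC109103491) and aurora borealis-like (LOC109069754), all with r = 0.99. Condensin compacts mitotic chromosomes, and aurora borealis (bora) activates mitotic kinases. Whether the genes most like kmt5ab share a function was not tested. The condensin gene had 192 ± 2.41 CPM at cleavage, 197 ± 14.7 at blastocyst, 244 ± 18.3 at gastrulation and 36.7 ± 3.76 in the larva. These levels and r values rest on TMM factors and were not recomputed under other scalings. Those moved the median of all features at gastrulation by -0.65 (library totals) and -0.83 (RPKM denominators), so the direction of its change at gastrulation depends on scaling.

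The other genes of the H4K20 methylation pathway were taken from lists set by product name, with features of the KMT5A name left out. Their counts rest on TMM factors and were not recomputed under other scalings, which moved the median of all features at gastrulation by -0.65 (library totals) and -0.83 (RPKM denominators). Over all features with TMM factors, 15.8% rose and 6.52% fell at blastocyst, 44.4% and 22.3% at gastrulation, 28.1% and 19.8% at organ formation, 17.4% and 12.2% at hatching and 5.32% and 6.13% in the larva. Falls over all features at gastrulation numbered 15441 of 69265 with TMM factors and 24429 of 68347 under the RPKM denominators. Beside the median of 0.75 over all features in that step, the median of histone H4 and p53 genes lay above, and those of the other 5 lists lay below. Of the 3 genes for KMT5B and KMT5C, which add the further methyl groups, 0 rose in any step. In the first step 1 fell, from blastocyst to gastrulation 1 and from gastrulation to organ formation 2, with median log2 changes of -0.08, -0.25 and -0.53, 0 changed from organ formation to hatching, and 2 fell in the larva. The most abundant, KMT5B-like (LOC109059339), had 183 ± 5.56 CPM at cleavage, 180 ± 5.36 at blastocyst, 135 ± 7.86 at gastrulation and 84.9 ± 3.07 in the larva. The KMT5B copy LOC109059335 had 141 ± 2.67 CPM at blastocyst and 139 ± 3.06 at gastrulation, and fell to 71.9 ± 8.46 at organ formation (log2 change -0.95 with an SE of 0.10, edgeR adjusted p = 4.5e-08).

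Of the 13 genes of the PCNA-coupled CRL4-Cdt2 route of degradation (PCNA, Cdt1, the Cdt2 gene denticleless, DDB1 and the cullins 4A and 4B), 3 rose and 2 fell at blastocyst, 4 rose and 5 fell at gastrulation and 2 rose and 7 fell at organ formation. Their median log2 change at gastrulation was -0.06. The replication licensing factor Cdt1 (LOC109071637), which the same ligase destroys, rose from 633 ± 58.8 to 828 ± 36.5 CPM at blastocyst (log2 change 0.39 with an SE of 0.13, edgeR adjusted p = 0.034). It then fell to 428 ± 44.2 at gastrulation and 49.03 ± 5.17 at organ formation (edgeR adjusted p = 1.4e-06 and 1.2e-13). A PCNA-like gene (LOC109110302) rose from 159 ± 4.404 to 435 ± 18.8 CPM at gastrulation (log2 change 1.45 with an SE of 0.10, edgeR adjusted p = 2.2e-11). Of the 5 genes of other ubiquitin ligase adaptors that target KMT5A in human cells, SKP2 and the fizzy-related APC/C activator, 0 rose and 3 fell at blastocyst and 3 rose and 1 fell at gastrulation (median log2 change 0.43). The SKP2-like gene LOC109076410 rose from 214 ± 7.53 to 417 ± 36.7 CPM at gastrulation and fell to 95.3 ± 2.55 at organ formation (edgeR adjusted p = 4.8e-08 and 8.4e-13).

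Among 23 tested genes of proteins that read H4K20 methylation, 1 rose and 0 fell at blastocyst, 4 rose and 14 fell at gastrulation (median log2 change -0.82) and 4 rose and 11 fell at organ formation. ORC1-like (LOC109076828), a subunit of the origin recognition complex, fell from 218 ± 8.08 to 106 ± 13.1 CPM at gastrulation (log2 change -1.04 with an SE of 0.10, edgeR adjusted p = 9.9e-09). The MBT domain gene MBTD1-like (LOC109053164) rose from 115 ± 4.56 to 298 ± 14.5 CPM in the same step (log2 change 1.38 with an SE of 0.09, edgeR adjusted p = 1.2e-11). Of the 4 genes of H4K20 demethylases, 2 rose and 1 fell at gastrulation (median log2 change 0.22). PHF8-like (LOC109075367) rose from 64.5 ± 1.98 to 143 ± 9.51 CPM, and the RSBN1-like gene LOC109053993, whose worm relative is a demethylase of H4K20, fell from 66.3 ± 2.74 to 25.1 ± 2.99 CPM (edgeR adjusted p = 2.0e-09 and 8.5e-10). Of 52 genes for the substrates histone H4 and p53, 37 rose and 0 fell at blastocyst, 43 rose and 3 fell at gastrulation (median log2 change 1.35), and 0 rose and 38 fell at organ formation. The most abundant H4 gene (LOC109094566) rose from 321 ± 32.7 to 537 ± 33.9 CPM at blastocyst and to 2521 ± 214 at gastrulation (edgeR adjusted p = 4.2e-04 and 9.1e-12).

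**Figure D5:**
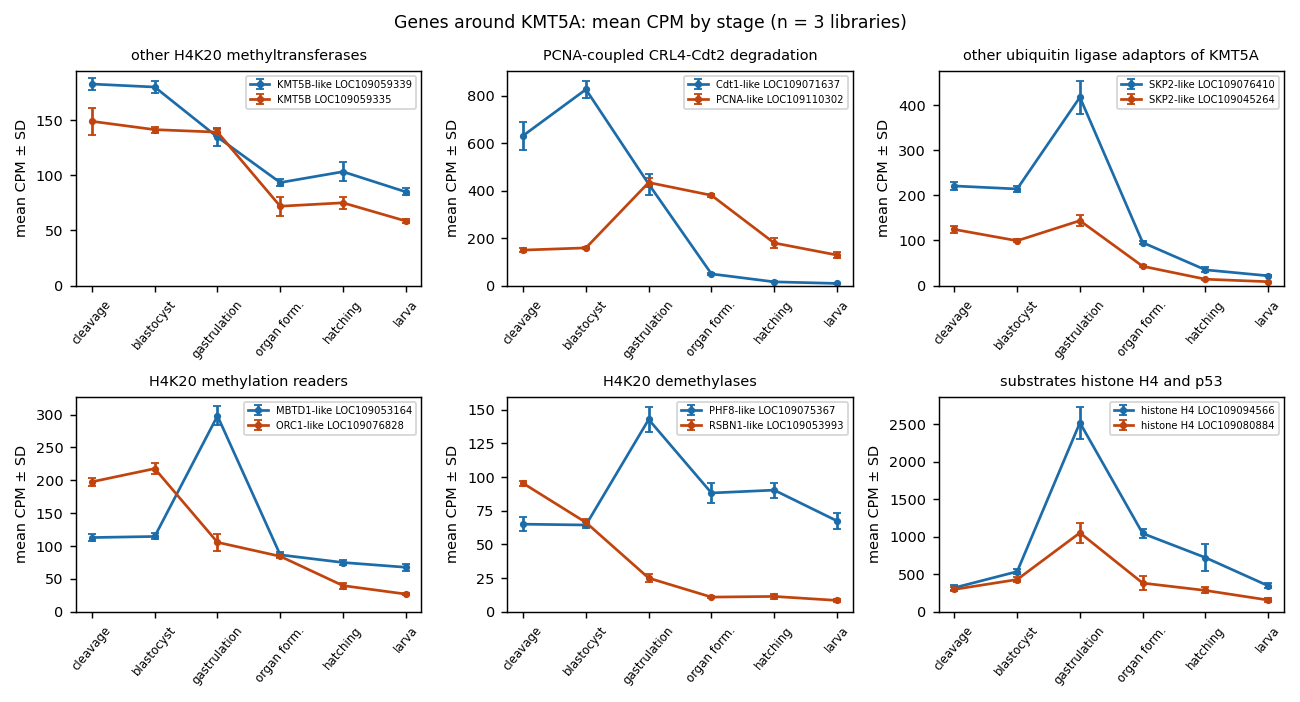
Mean CPM (± SD, n = 3 libraries) by stage of the 2 most abundant tested genes of each list around KMT5A, each panel with its own linear axis from 0. With TMM factors, histone H4, PCNA, SKP2-like, MBTD1-like and PHF8-like genes are highest at gastrulation, Cdt1 and ORC1-like at blastocyst, and KMT5B and RSBN1-like genes at cleavage. The highest stage of each gene was not recomputed under other scalings. The step from cleavage to blastocyst did not pass for ORC1-like (log2 change 0.14, edgeR adjusted p = 0.36) or the KMT5B genes (log2 change -0.02 and -0.08). The PCNA-like gene did not pass from gastrulation to organ formation (log2 change -0.19, edgeR adjusted p = 0.11). Library totals moved the median of all features in that step by 0.35.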

How the data were processed

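Whole-number read counts per feature and RPKM values were deposited by the authors for 18 libraries. All 18 per-library count files matched the series table. The deposited RPKM are the authors' own scaling by feature length and library size. Tools named per the submitters' processing notes are HISAT2, StringTie (1.3.3b), featureCounts and edgeR. For their settings, strand mode, build, annotation and RPKM denominator: not given in the sources used here. Coordinates and sequences were therefore not used.

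Features passing filterByExpr (69265) were tested with edgeR 4.0.16 in R 4.3.3: TMM factors, 1 coefficient per stage over all 18 libraries, robust quasi-likelihood F tests and Benjamini-Hochberg adjustment. The test was checked on simulated data, for changes from hatching to larva only and with 1 fixed spread for all features. That check does not cover the scaling between the other stages. Alternatives used RLE factors, library totals, DESeq2 1.42.0, no filter, a filter of 1 CPM in 3 libraries, limma 3.58.1 on log2(RPKM + 1) and log2(RPKM + 0.1), which understates changes of low genes, a replicate block, and each library left out. RPKM-implied denominators were added after seeing the data. No fold change is discussed where both stages held under 30 counts and the test did not pass. The members, lists and tests were chosen with earlier results of these data known. Named were all members, the 2 most abundant tested genes of each list, and the 5 genes most like LOC109068150 and kmt5ab (5 CPM or more at a stage, log2 CPM with a prior count of 2).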

Additional observations from a re-analysis of the deposited data

How the results depend on the processing

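Counts of called copies moved mainly with scaling. They include copies without cleavage counts, whose rise into and fall out of blastocyst was fixed by their class. From blastocyst to gastrulation 4 copies fell with TMM factors and 7 fell under library totals, both limma fits on RPKM and the RPKM denominators. From gastrulation to organ formation 7 fell with TMM factors and 4 under both limma fits and the RPKM denominators. From organ formation to hatching 2 fell, and 0 did under those 3 settings, while 1 rose with limma on log2(RPKM + 0.1). From cleavage to blastocyst 1 fell with limma on log2(RPKM + 1), LOC109079974. With 1 library left out, the falls ranged from 4 to 6, 5 to 7, 2 to 2 and 1 to 2 in the last 4 steps, and the rises at blastocyst from 2 to 3. Both filter settings (none, and 1 CPM) gave 6 falls at gastrulation, and the 1 CPM filter gave 3 rises at blastocyst. The cause was not tested.

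Signs turned for kmt5ab from blastocyst to gastrulation (-0.43 under library totals, -0.76 and -0.79 with limma on log2(RPKM + 1) and log2(RPKM + 0.1), -0.76 under RPKM denominators, -0.13 to 0.24 with 1 library left out). The other turned signs were of changes that passed in neither fit. From cleavage to blastocyst under the limma fits and RPKM denominators kmt5ab had -0.15, -0.15 and -0.15 and LOC109088593 -0.16, -0.17 and -0.16. LOC109088593 had -0.0030 under library totals. With the 1 CPM filter LOC109080144 had 0.0018 and kmt5aa 0.027, and kmt5aa had 0.0051 without a filter. With 1 library left out they ranged from -0.26 to 0.0052 and from -0.23 to 0.080. From organ formation to hatching under the limma fits and RPKM denominators LOC109080144 had 0.072, 0.14 and 0.12 and LOC109088593 0.24, 0.29 and 0.28. From hatching to larva LOC109079974 ranged from -0.74 to 0.43 with 1 library left out. The log2 ratio of kmt5ab to LOC109080144 kept its call with a pseudocount of 1, a replicate block and each library left out, with a span of stage means from 3.07 to 3.41 when 1 library was left out.

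Same-numbered libraries did not deviate together (r from -0.12 to 0.08 over 45 pairs). Pairs with different numbers ranged more widely, from -0.14 to 0.14. The check therefore cannot tell whether a shared number marks a shared spawning or preparation. With a replicate block the counts of called copies stayed within 1.5 times, and the ratio, whose span of 3.23 does not depend on the block, had a permutation p of 0.0011 with stages permuted within replicate numbers (permutation test, 18 libraries). Copies with few counts limit the later stages: LOC109109014 and LOC109049960 had 2 and 8 counts over organ formation.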

Other observations

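Of the 41 protein-coding genes with no count at cleavage, a mean of 1 CPM or more at blastocyst and a drop in every gastrulation library, 7 were zinc finger genes with Xenopus gastrula or oocyte names (XlCGF or XlCOF), of 265 such genes with counts (2.64%). Uncharacterized genes made up 14 of the 41, of 3280 such genes with counts (0.427%). The 3 KMT5A-like copies were among them, with blastocyst means from 4.21 to 29.9 CPM. The set, defined after values were seen and not tested, also held LOC109060158, a nodal homolog 2-A-like gene of mesendoderm induction, at 4.55 ± 0.934 CPM at blastocyst.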
